A study of Homo sapiens with 36 samples.

Results

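FOXC1, SOX10, SOX9, GATA3, FOXA1, ESR1, ELF5, GABRP and SCGB2A2 are breast lineage transcription factors and secretory or receptor markers. They were taken by their exact symbols, 9 of the 26475 genes in the deposited table, and all 9 were found. The study sequenced RNA from 3 human cancer cell lines that carried constructs against 1 gene or a non-targeting construct, in 12 groups of 3 libraries, which the design text calls biological replicates. The lines were MDA-MB-468, of basal-like breast cancer, PANC-1, of carcinoma of the pancreas, and WiDr, of adenocarcinoma of the large bowel. By the sample titles, each line carried targeting hairpin 1, targeting hairpin 2 or a non-silencing hairpin in the pGIPZ vector, a lentiviral vector for short hairpin RNA. WiDr cells also carried targeting guide 1, targeting guide 2 or a non-targeting guide for Cas9. The non-silencing hairpin and the non-targeting guide are called control here. All 36 libraries came from cells grown in DMEM with serum. The labels do not say whether the constructs were studied in clones or in pools of cells.

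Mammary epithelium has a basal or myoepithelial layer and a luminal layer. FOXC1, SOX10 and SOX9 are transcription factors linked to basal and progenitor cells, whereas GATA3, FOXA1 and the oestrogen receptor ESR1 form the core of the hormone-responsive luminal program, in which FOXA1 opens chromatin for the receptor. ELF5 is an ETS-family factor of luminal progenitors and of the milk-secreting alveolar lineage. GABRP is the pi subunit of the GABA-A receptor, a chloride channel subunit found in basal-like breast tumours, and SCGB2A2 encodes mammaglobin-A, a small secreted secretoglobin used as a marker of breast origin.

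Library totals ran from 28371127 to 49237322 expected counts, that is, read counts estimated per gene. Levels are given as CPM, counts-per-million after trimmed-mean scaling within an experiment, and a change passed where edgeR's quasi-likelihood test gave a Benjamini-Hochberg adjusted p under 0.05 over all genes tested in that experiment. Of the 10 colon epithelium markers, none averaged 1 CPM in any MDA-MB-468 group, and their summed level was 0.812 to 1.54 CPM in MDA-MB-468 controls, 11.8 to 16.0 CPM in PANC-1 controls and 1175 to 1236 CPM in WiDr hairpin controls. The 11 pancreas markers summed to 14.2 to 16.9 CPM in PANC-1 controls, with 5 of them at 0 there, including PTF1A and PRSS1, and to 260 to 271 CPM in WiDr hairpin controls. The defining markers of exocrine pancreas were at or near 0 in PANC-1, and the pancreas list did not set that line apart. MDA-MB-468 control replicate 1 stood apart from its line, with correlations of 0.956 to 0.977 to the other MDA-MB-468 libraries and 16043 genes with counts. PANC-1 hairpin 1 replicate 2 stood apart from its line, with 22758 genes with counts, against 17513 to 18188 in the other PANC-1 libraries, and 2718 of them at 0 in those other 8. The members' calls and the list counts in these lines are also given without the library that stood apart.

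The 2 members that rose with both hairpins in MDA-MB-468 cells were SCGB2A2 and GABRP, and their promoters are shown with those of ELF5 and of SCGB2A1, the secretoglobin most like SCGB2A2. Each runs from 250 bases before to 50 after the start site on the gene's strand, in RefSeq's GRCh38.p14. Capitals mark the forkhead word TGTTTAC or its reverse complement GTAAACA.
SCGB2A2 promoter, chr11:62269908-62270207 (+): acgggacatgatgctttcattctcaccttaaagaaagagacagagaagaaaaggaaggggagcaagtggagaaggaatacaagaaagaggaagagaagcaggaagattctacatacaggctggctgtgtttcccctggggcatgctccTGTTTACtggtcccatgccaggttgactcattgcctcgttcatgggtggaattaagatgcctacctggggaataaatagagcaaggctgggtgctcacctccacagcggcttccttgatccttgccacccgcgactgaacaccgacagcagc
SCGB2A1 promoter, chr11:62208423-62208722 (+): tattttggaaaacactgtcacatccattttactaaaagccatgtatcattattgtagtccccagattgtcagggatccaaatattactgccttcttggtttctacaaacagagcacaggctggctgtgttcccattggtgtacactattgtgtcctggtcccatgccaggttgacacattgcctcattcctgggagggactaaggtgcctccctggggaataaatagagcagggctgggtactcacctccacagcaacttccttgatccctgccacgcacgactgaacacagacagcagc
ELF5 promoter, chr11:34511675-34511974 (-): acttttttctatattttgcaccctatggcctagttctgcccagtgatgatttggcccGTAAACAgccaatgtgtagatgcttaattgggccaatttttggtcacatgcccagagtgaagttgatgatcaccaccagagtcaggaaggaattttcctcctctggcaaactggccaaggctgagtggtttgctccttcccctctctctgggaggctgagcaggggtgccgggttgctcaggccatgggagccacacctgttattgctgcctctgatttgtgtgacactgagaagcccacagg
GABRP promoter, chr5:170783475-170783774 (+): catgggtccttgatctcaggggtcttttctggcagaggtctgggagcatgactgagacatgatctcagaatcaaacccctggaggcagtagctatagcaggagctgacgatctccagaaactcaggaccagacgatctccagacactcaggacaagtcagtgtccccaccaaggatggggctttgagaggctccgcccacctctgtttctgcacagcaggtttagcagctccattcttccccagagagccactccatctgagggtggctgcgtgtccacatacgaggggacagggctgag
The forkhead word began 102 bases before the start site in SCGB2A2, on the gene's strand, and 193 bases before it in ELF5, on the other strand. It stood, on either strand, in 3.42% of 35116 RefSeq promoters. Promoter entries were found for 7 of the 9 members, all but SOX9 and SOX10. The GATA word AGATAA, in 10.3% of promoters, was in none of the members' windows. The ETS word CGGAAG, in 19.5% of promoters, and the SOX word ACAATG, in 10.8%, were each in a GATA3 window only. The 4 words do not overlap one another in these windows, both strands were searched, and no match says only that these letters are not in this window. From position -102 to 50, the SCGB2A2 and SCGB2A1 promoters were identical at 134 of 152 bases, or 88.2%, and 5 of the 7 bases of the forkhead word were the same in SCGB2A1.

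SCGB2A2 had the largest rise among the members in MDA-MB-468 cells. The 3 libraries of hairpin 1 held 112, 124 and 138 CPM, those of hairpin 2 held 133, 103 and 168 CPM, and those of the control held 51.6, 32.4 and 38.9 CPM. All 6 hairpin libraries were above all 3 control libraries. The means were 125 ± 12.6 CPM with hairpin 1, 134 ± 32.5 CPM with hairpin 2 and 41.0 ± 9.73 CPM in the control (SD, n = 3 each). The rise was 3.05-fold with hairpin 1, a log2 fold change of 1.61 with a standard error of 0.211 and an adjusted p of 0.00677 by edgeR's quasi-likelihood test. With hairpin 2 it was 3.28-fold, a log2 fold change of 1.71 with a standard error of 0.211 and an adjusted p of 0.00349. Without control replicate 1, the library that stood apart, the log2 fold changes were 1.81 and 1.91. The gene lies at chr11:62270155-62273156 on the plus strand of GRCh38, no annotated gene overlaps it, and its expected count was a whole number (tolerance 1e-06) in all 36 libraries.

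Within each arm, the order of the SCGB2A2 values matched a difference between libraries in gene length. The median log2 deviation of 759 genes under 1500 exon bases minus that of 2807 genes over 8000 was -0.13, -0.11 and 0.06 in the hairpin 1 libraries, 0.08, -0.44 and 0.42 in the hairpin 2 libraries, and 0.56, -0.35 and -0.02 in the control libraries. SCGB2A2 was highest where short genes were highest in each arm, and EGFR, the receptor gene amplified in MDA-MB-468, ran the other way, with 1876, 1383 and 1074 CPM with hairpin 1, 1047, 2081 and 582 CPM with hairpin 2, and 444, 1982 and 1080 CPM in the control. The length measure averaged -0.06 ± 0.108 with hairpin 1, 0.02 ± 0.433 with hairpin 2 and 0.06 ± 0.464 in the control (SD, n = 3 each). Its part in the SCGB2A2 values was not tested.

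GABRP also rose with both hairpins in MDA-MB-468. Its level was 41.1, 43.3 and 43.8 CPM with hairpin 1, 48.9, 48.6 and 44.3 CPM with hairpin 2, and 28.6, 30.4 and 29.7 CPM in the control. No hairpin library reached down to the highest control library, and the spread within each group was small, with means of 42.7 ± 1.44, 47.3 ± 2.55 and 29.6 ± 0.902 CPM in that order of groups. The change was 1.44-fold with hairpin 1 (log2 fold change 0.53, SE 0.0732, adjusted p = 0.00769, edgeR quasi-likelihood) and 1.60-fold with hairpin 2 (log2 fold change 0.68, SE 0.0732, adjusted p = 0.00177). The hairpin 1 call was lost without control replicate 3, hairpin 1 replicate 2 or hairpin 1 replicate 3, at adjusted p = 0.0504, 0.0585 and 0.0571. Of the 18 other GABA-A receptor subunits, 3 could be tested in this line and none passed with either hairpin. GABRA3, an alpha subunit, averaged 23.5 CPM with hairpin 1, 21.1 CPM with hairpin 2 and 21.1 CPM in the control, and had a log2 fold change of 0.15 with hairpin 1 and 0.00 with hairpin 2 (adjusted p = 0.867 and 0.999).

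**Figure D1:**
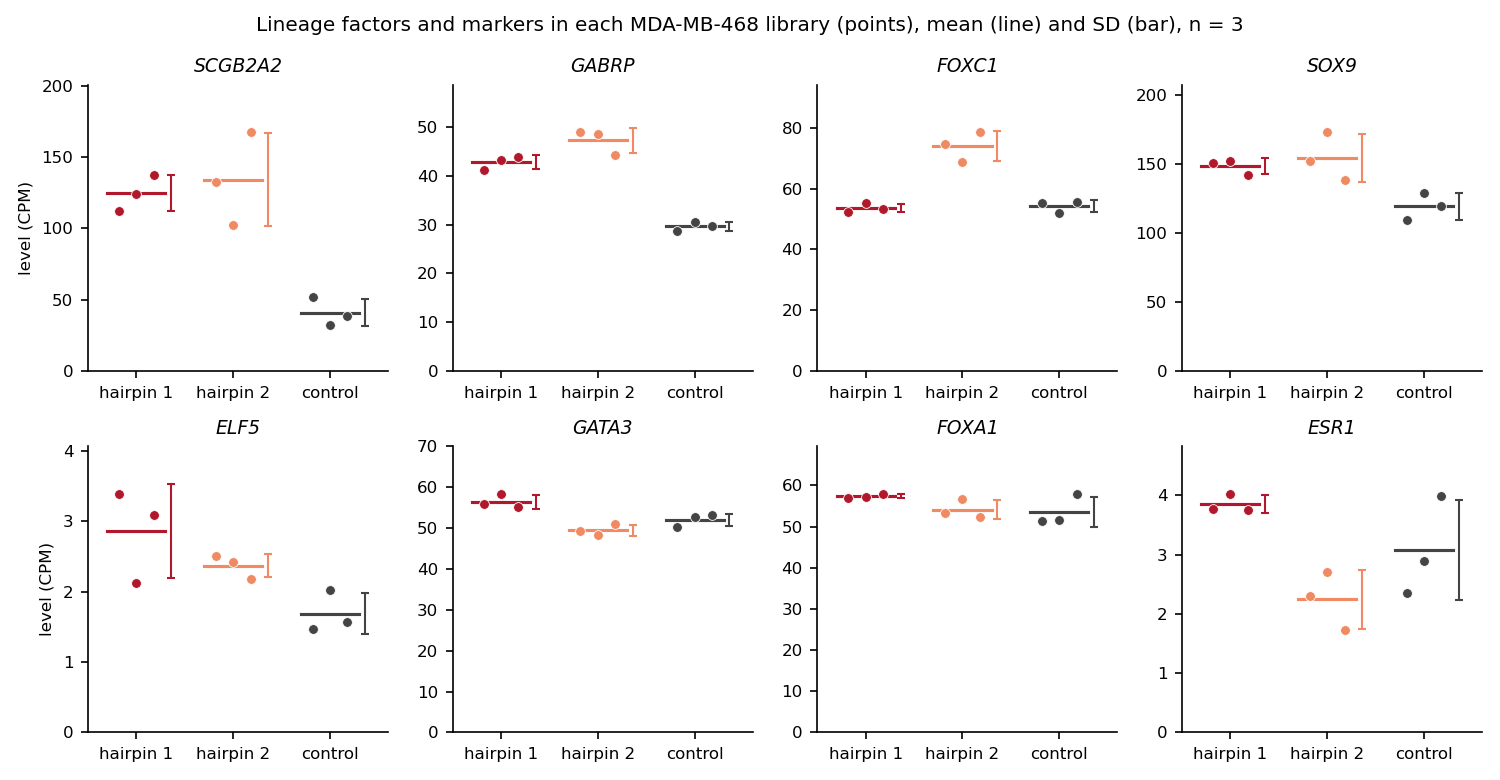
Level in CPM of the 8 members tested in MDA-MB-468, with hairpin 1, hairpin 2 and control from left to right in each panel; points are libraries, lines are means and bars are SD (n = 3). The SCGB2A2, GABRP, SOX9 and ELF5 points of both hairpins lie above the control points, the FOXC1 points with hairpin 2 only, and the FOXA1 and ESR1 points overlap those of the control.

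FOXC1, a forkhead factor of basal-like breast cancer, differed between the hairpins in MDA-MB-468. Hairpin 1 libraries held 52.4, 55.1 and 53.4 CPM, hairpin 2 libraries 74.6, 68.8 and 78.6 CPM and control libraries 55.4, 52.1 and 55.5 CPM. The hairpin 2 values stood above all others, and the hairpin 1 values lay among those of the control. FOXC1 rose with hairpin 2, by a log2 fold change of 0.44 (SE 0.0741, adjusted p = 0.0135), and had a log2 fold change of -0.02 with hairpin 1 (adjusted p = 0.960, edgeR quasi-likelihood). Hairpin 2 set directly against hairpin 1 gave a log2 fold change of 0.46 (adjusted p = 0.0390), where 0.437% of all genes tested passed. The call of hairpin 2 against control was lost when the fit held only these 6 libraries, at adjusted p = 0.0931, and without control replicate 3, hairpin 2 replicate 1 or hairpin 2 replicate 3, at 0.0563, 0.0823 and 0.0519.

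SOX9, a factor of mammary stem and progenitor cells, was higher in every hairpin library than in every MDA-MB-468 control library but did not pass. SOX9 had 151, 153 and 142 CPM with hairpin 1, 152, 173 and 139 CPM with hairpin 2, and 109, 129 and 120 CPM in the control. Its log2 fold changes were 0.32 and 0.37, with adjusted p of 0.175 and 0.0817 by edgeR's quasi-likelihood test. When all 36 libraries shared the estimate of spread, both hairpins passed, at 0.000796 and 9.14e-05. ELF5 had the same arrangement at a low level, with 3.39, 2.12 and 3.09 CPM with hairpin 1, 2.50, 2.42 and 2.18 CPM with hairpin 2, and 1.47, 2.03 and 1.56 CPM in the control. The lowest hairpin library lay only just above the highest control library, and its log2 fold changes of 0.76 and 0.49 had adjusted p of 0.123 and 0.313. With all 36 libraries ELF5 passed with hairpin 1, at 0.0471. Spread between replicates, as the common biological coefficient of variation, was 0.151 in MDA-MB-468 and PANC-1, and 0.063 and 0.064 in the WiDr experiments. The shared fit mixes these, so its adjusted p can be too small for MDA-MB-468. SOX10, a neural crest and basal mammary factor, was close to absent: the 3 libraries summed to 11 counts with hairpin 1, 10 with hairpin 2 and 12 in the control, too few to test.

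The 3 luminal hormone-program members did not pass with either hairpin in MDA-MB-468. GATA3 had 55.9, 58.4 and 55.1 CPM with hairpin 1, 49.2, 48.3 and 51.0 CPM with hairpin 2, and 50.4, 52.7 and 53.1 CPM in the control. The log2 fold changes of 0.12 and -0.07 (adjusted p = 0.536 and 0.737) had 95% intervals, which cover the fit's error for 1 gene alone, of -0.01 to 0.25 and -0.20 to 0.06. These and later intervals come from the normal distribution and are narrower than the quasi-likelihood test implies. Hairpin 1 values lay above those of the control and hairpin 2 values overlapped them. FOXA1 had 57.1, 57.3 and 58.0 CPM with hairpin 1, 53.4, 56.6 and 52.3 CPM with hairpin 2, and 51.4, 51.5 and 57.8 CPM in the control. Its groups overlapped, with log2 fold changes of 0.10 and 0.01 (adjusted p = 0.699 and 0.990). ESR1 was low, at 3.77, 4.03 and 3.75 CPM with hairpin 1, 2.30, 2.71 and 1.72 CPM with hairpin 2, and 2.34, 2.90 and 3.99 CPM in the control. Those groups overlapped as well, and the log2 fold changes of 0.32 and -0.46 pointed in opposite directions (adjusted p = 0.656 and 0.386).

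Counted together, 8 of the 9 members could be tested in MDA-MB-468. With hairpin 1, 2 passed, both higher, against 2.27% of all genes tested, and with hairpin 2, 3 passed, all higher, against 3.49%. With both hairpins, 2 members rose and none fell, where 0.744% of the 14641 genes tested rose with both and 0.567% fell with both. The members' median log2 fold change, as the mean of both hairpins, was 0.28, and that of all genes tested was -0.01. Without control replicate 1 the same members passed with each hairpin. The members were picked with earlier results of these data known, so their counts and median describe them and no more. As in any bulk measurement, fewer cells of a type and less RNA per cell cannot be told apart.

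Per length, the members spanned a wide range in MDA-MB-468. On the RPKM scale, a reads-per-kilobase-per-million scale, with all 36 libraries scaled together, SCGB2A2 had a level of 79.9 with hairpin 1, 86.4 with hairpin 2 and 25.8 in the control, which placed it above 97.4%, 97.6% and 89.8% of the genes with any count. SOX9 had 36.4, 38.0 and 28.9 in the same groups. FOXC1, GATA3 and FOXA1 lay next to each other in the control, at 13.2, 14.4 and 12.8. Below them came GABRP at 6.10, and far below, ELF5 at 0.358, ESR1 at 0.212 and SOX10 at 0.0305. The lengths are those of all annotated exons together, 1508 bases for SCGB2A2, so the per-length level of a gene whose main transcript is shorter is understated.

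The other secretoglobin and apocrine secretory genes were described from a list of 17, of which 9 could be tested in MDA-MB-468. Of these, 3 rose with both hairpins, none fell and 6 did not pass, with a median log2 fold change of 0.00. Of all genes tested, 0.744% rose and 0.567% fell with both. The list was chosen with earlier results of these data known. Its risers were SCGB1D2, SCGB2A1 and MUCL1. SCGB1D2 encodes lipophilin B, the secretoglobin that binds mammaglobin-A, and had 6.01, 5.23 and 6.24 CPM with hairpin 1, 6.17, 5.07 and 7.23 CPM with hairpin 2, and 1.38, 1.39 and 2.24 CPM in the control. All 6 hairpin libraries were above all 3 control libraries, and its log2 fold changes of 1.81 and 1.89 (adjusted p = 0.00436 and 0.00246, edgeR quasi-likelihood) were of about the size seen for SCGB2A2. SCGB2A1, mammaglobin-B, rose on very few counts, with 1.27, 1.47 and 1.82 CPM with hairpin 1, 1.25, 1.12 and 1.55 CPM with hairpin 2, and 0.301, 0.463 and 0.383 CPM in the control, which is 10 to 16 counts a control library. Its log2 fold changes were 1.98 and 1.76 (adjusted p = 0.00602 and 0.00746). The expected counts of SCGB2A1 were whole (tolerance 1e-06) in all 36 libraries, so they show no reads split with another gene. Reads of SCGB2A2 placed wholly on SCGB2A1 would leave no fraction, and this was not tested. MUCL1, a small mucin-like breast secretory protein, averaged 33.7 CPM with hairpin 1, 31.7 CPM with hairpin 2 and 14.5 CPM in the control, with log2 fold changes of 1.21 and 1.12 (adjusted p = 0.0158 and 0.0164). MUCL1 passed in 12 of 16 other settings with hairpin 1 and in 11 with hairpin 2: both calls were lost without control replicate 3 (0.0801 and 0.0810), the hairpin 1 call without any one hairpin 1 library (up to 0.0764), and the hairpin 2 call without control replicate 2, hairpin 2 replicate 1 or hairpin 2 replicate 3 (up to 0.0823) and with the hairpin 2 and control libraries alone (0.0830). The other 2 passed with both hairpins in all 16 settings, and without control replicate 1 the same count of 3 rose with both and the list's median was 0.19.

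SCGB2A2, SCGB2A1 and SCGB1D2 lie in 1 cluster on chromosome 11, with the start sites of SCGB1D2 and SCGB2A1 at 27.9 and 61.5 kb from that of SCGB2A2, whereas MUCL1 is on chromosome 12. The cluster did not rise as a whole: SCGB1D1, 79.9 kb away, had 0 counts in all 9 MDA-MB-468 libraries, and SCGB1D4, 28.9 kb away, had at most 1. Outside MDA-MB-468 the risers were at or near 0. SCGB2A2 had 0 counts in all 18 WiDr libraries and in 7 of 9 PANC-1 libraries, with a highest count of 2.

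Among 28 basal and myoepithelial markers, 25 could be tested in MDA-MB-468. Of these, 5 rose with both hairpins, 1 fell and 19 did not pass, with a median log2 fold change of 0.07. Of all genes tested, 0.744% rose and 0.567% fell with both. The lists were chosen with earlier results of these data known, so their counts describe them and no more. MME, the surface endopeptidase CD10 of myoepithelial cells, averaged 31.4 CPM with hairpin 1, 26.6 CPM with hairpin 2 and 11.7 CPM in the control (log2 fold changes 1.42 and 1.18, adjusted p = 0.00480 and 0.00768, edgeR quasi-likelihood). CRYAB, a small heat shock protein of basal-like tumours, averaged 65.9, 54.1 and 30.7 CPM in that order of groups (1.10 and 0.82, adjusted p = 0.00695 and 0.0185). Its hairpin 2 call was lost without control replicate 3, hairpin 2 replicate 1 or hairpin 2 replicate 3 (0.0812, 0.0891 and 0.0598), and with the hairpin 2 and control libraries alone (0.100), and the MME call with hairpin 2 was lost in the last of these settings only (0.0602). The basal keratin KRT14 averaged 407 CPM with hairpin 1, 382 CPM with hairpin 2 and 181 CPM in the control, with log2 fold changes of 1.17 and 1.08 (adjusted p = 0.0152 and 0.0158). It passed in 12 of 16 settings with each hairpin: both calls were lost without control replicate 3 (0.0767 and 0.0782), the hairpin 1 call without any one hairpin 1 library (up to 0.0730), and the hairpin 2 call without hairpin 2 replicate 1 or 3 (0.0715 and 0.0519) and with the hairpin 2 and control libraries alone (0.0965). KRT6A and KRT6B, named after their values were seen, complete the 5, with 0.93 and 0.70 for KRT6A and 0.59 and 1.25 for KRT6B. The expected counts of these 3 keratins were not whole in any MDA-MB-468 library, so reads were shared with near-identical genes and their values are uncertain. TAGLN, a contractile protein of myoepithelial cells, fell to 15.2 CPM with hairpin 1 and 15.1 CPM with hairpin 2, against 29.0 CPM in the control, by log2 fold changes of -0.93 and -0.94 (adjusted p = 0.0207 and 0.0156). Its calls held in 11 and 12 of 16 settings: both were lost without control replicate 3 (0.0677 and 0.0506), the hairpin 1 call without any one hairpin 1 library (up to 0.119) or without hairpin 2 replicate 1 (0.0505), and the hairpin 2 call without hairpin 2 replicate 1 or 2 (0.0861 and 0.0527) and with the hairpin 2 and control libraries alone (0.0897). Without control replicate 1, 7 of the basal markers rose with both hairpins and 1 fell (median 0.17).

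**Figure D2:**
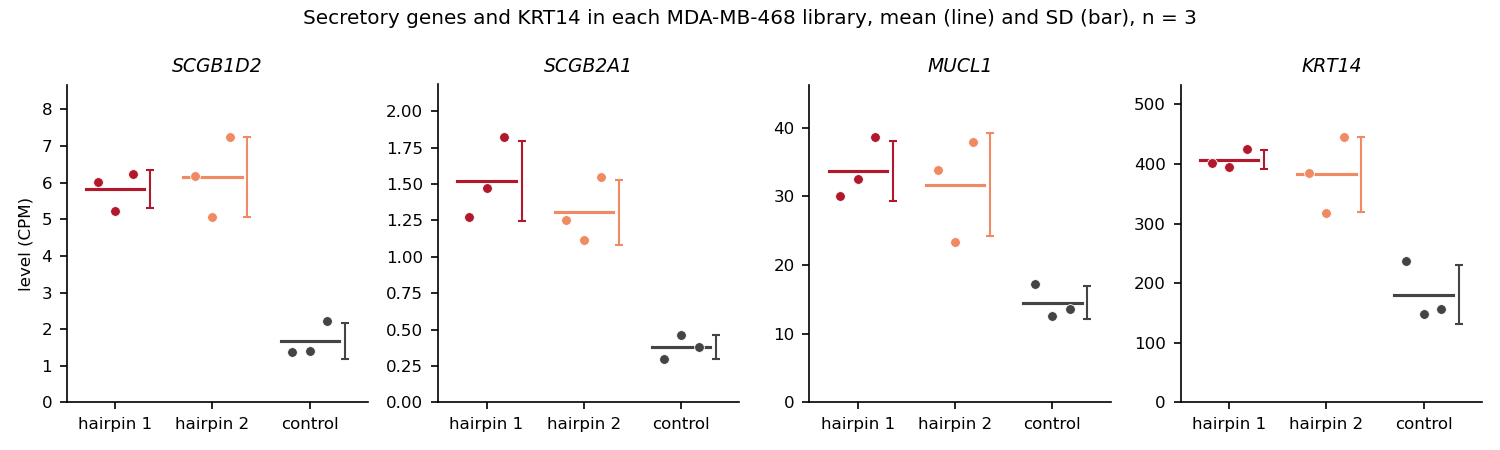
Level in CPM of SCGB1D2, SCGB2A1, MUCL1 and KRT14 in the 9 MDA-MB-468 libraries, with hairpin 1, hairpin 2 and control from left to right; points are libraries, lines are means and bars are SD (n = 3). In each of the 4 genes all 6 hairpin points lie above the 3 control points.

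Of 30 luminal hormone-responsive markers, 22 could be tested in MDA-MB-468 and none passed with both hairpins, with a median log2 fold change of -0.06. None passed with hairpin 1. With hairpin 2, 3 fell and 0 rose, where 263 of 14641 genes fell and 248 rose. The luminal keratins KRT19 and KRT8, the list's most abundant genes, had log2 fold changes of -0.01 and -0.10 for KRT19 and of -0.44 and -0.46 for KRT8 (lowest adjusted p = 0.144, edgeR quasi-likelihood). PGR, the progesterone receptor, and TFF1 were at or near 0 in the control. Among 28 luminal progenitor and alveolar markers, 21 could be tested; MMP7, a secreted protease, rose (0.80 and 1.84, adjusted p = 0.0133 and 0.000193), and CHI3L1, a secreted chitinase-like protein, fell (-1.25 and -1.13, adjusted p = 0.0231 and 0.0277). The CHI3L1 call held in only 8 of 16 settings with hairpin 1 and 6 with hairpin 2. With hairpin 1 it was lost without control replicate 2 or 3, without any one hairpin 1 library or without hairpin 2 replicate 1 (0.0524 to 0.133), and with hairpin 2 without control replicate 2 or 3, without any one hairpin 1 library or without hairpin 2 replicate 1 or 2 (0.0544 to 0.144). Both calls were also lost with all 36 libraries in 1 fit (0.105 and 0.127). The MMP7 call with hairpin 1 was lost without control replicate 3 or any one hairpin 1 library (0.0630 to 0.0724). Without control replicate 1 both passed with both hairpins, CHI3L1 at 0.0449 and 0.0495. The other 19 did not pass with both hairpins, and the median was -0.03. None of the 12 tested of 23 relatives of the lineage factors passed with either hairpin (median 0.04); SOX4 had log2 fold changes of 0.27 and 0.23 (adjusted p = 0.0940 and 0.115) and ESRRA of -0.04 and 0.18.

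Markers of other cells differed in level in MDA-MB-468. The 18 neural crest and Schwann genes summed to 216 to 222 CPM with hairpin 1, 206 to 237 CPM with hairpin 2 and 202 to 218 CPM in the control. Most of that sum was TFAP2A, at 109, 116 and 116 CPM in that order of groups, and ERBB3, at 70.2, 58.8 and 75.4 CPM, both of which mammary epithelium also expresses. Of these 18 neural crest and Schwann genes, 7 could be tested (median -0.04) and NCAM1, an adhesion molecule, rose with both hairpins (1.63 and 1.86, adjusted p = 0.00104 and 0.000393), while S100B and PAX3, defining genes of that list, were at 0 in all 3 groups. Of 10 fibroblast markers, 3 could be tested (median -0.46) and FAP, a stromal protease, fell (-2.07 and -1.76, adjusted p = 0.00125 and 0.00177), and DCN and POSTN were at 0. The expected counts of NCAM1 were not whole in 5 of the 9 libraries and those of FAP in 6, so some reads were shared with other genes and their values are uncertain. Without control replicate 1 these counts of risers and fallers were the same. The fibroblast list summed to 8.84 to 10.9 CPM with hairpin 1, 6.72 to 9.24 CPM with hairpin 2 and 10.9 to 14.05 CPM in the control. In the colon list 2 of 10 genes could be tested, LGALS4 and KRT20, and neither passed (median 0.59), and none of the 11 pancreas genes could be tested.

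In PANC-1, 4 members could be tested, FOXC1, SOX9, GATA3 and FOXA1, and each passed with both constructs, 1 higher and 3 lower, where 30.2% of genes passed with hairpin 1 and 33.4% passed in libraries labelled hairpin 2. With both constructs 12.7% of genes rose and 11.1% fell. SOX9, which is also a factor of pancreatic duct and progenitor cells, was the one that rose, with 156, 159 and 160 CPM with hairpin 1, 181, 179 and 179 CPM in the libraries labelled hairpin 2, and 122, 115 and 112 CPM in the control. Its log2 fold changes were 0.45 and 0.63 (adjusted p = 0.00146 and 0.000195, edgeR quasi-likelihood). GATA3 fell, to 4.72, 4.92 and 4.79 CPM with hairpin 1 and 5.13, 5.50 and 5.34 CPM in the libraries labelled hairpin 2, against 8.80, 9.36 and 8.24 CPM in the control. Its log2 fold changes were -0.87 and -0.72 (adjusted p = 0.000192 and 0.000529). FOXC1 averaged 6.64 ± 0.675 CPM with hairpin 1, 7.25 ± 0.530 CPM in the libraries labelled hairpin 2 and 11.0 ± 0.575 CPM in the control (SD, n = 3 each). Its fall was -0.73 and -0.60 in log2 (adjusted p = 0.00119 and 0.00318). FOXA1 was near the limit of counting, with 23 to 43 counts in the hairpin libraries and 59 to 72 in the control, and fell by 1.09 and 1.40 on the log2 scale (adjusted p = 0.00616 and 0.00191). In these 4 genes no hairpin library overlapped the control, but the share of all genes with such a gap was not counted. Without PANC-1 hairpin 1 replicate 2, the hairpin 1 log2 fold changes were -0.81 for FOXC1, 0.44 for SOX9, -0.89 for GATA3 and -1.32 for FOXA1, and all 4 passed.

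SOX10, ESR1, ELF5, GABRP and SCGB2A2 had 0 counts in all 3 PANC-1 control libraries. The highest counts of SOX10, ESR1, ELF5 and GABRP in this line, 6, 7, 4 and 8, were in hairpin 1 replicate 2, the library that stood apart; ELF5 also had 4 counts in 1 library labelled hairpin 2. These counts are at a level where no change can be read.

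WiDr was the only other line with a sizeable GABRP level. With hairpin 1 its libraries held 114, 119 and 121 CPM, with hairpin 2 they held 87.2, 86.8 and 86.9 CPM, and in the control 51.7, 51.5 and 46.9 CPM. The 3 groups did not overlap, and the log2 fold changes were 1.24 (SE 0.0523, adjusted p = 4.97e-11, edgeR quasi-likelihood) and 0.80 (SE 0.0523, adjusted p = 8.69e-09). Hairpin 2 was below hairpin 1, by -0.44 in log2 (adjusted p = 6.47e-06), where 42.4% of genes passed in that comparison. With guides the values were 88.4, 87.3 and 88.8 CPM for guide 1, 132, 141 and 128 CPM for guide 2, and 108, 115 and 113 CPM in the non-targeting control. Guide 1 was below and guide 2 above the control in every library, with log2 fold changes of -0.35 (adjusted p = 3.53e-05) and 0.26 (adjusted p = 0.00139). Guide 2 exceeded guide 1 by 0.60 in log2 (adjusted p = 9.68e-08), where 34.4% of genes passed. In 4 of the 6 libraries with targeting guides, title and genotype label name different guides. By that label only 1 library, guide 1 replicate 3 by title, stood under guide 2, and guide 1 mixed libraries of both titles. The GABRP log2 fold changes were then 0.04 for guide 1 and -0.33 for guide 2. These are not like groups, so they cannot decide the direction for each guide. With all 36 libraries in 1 fit, the guide 2 call by title was lost (adjusted p = 0.277).

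FOXC1 moved in opposite directions with hairpins and guides in WiDr. Hairpin 1 libraries held 9.93, 7.36 and 8.28 CPM, hairpin 2 libraries 7.19, 8.15 and 8.26 CPM and hairpin control libraries 13.9, 12.8 and 11.5 CPM. FOXC1 fell with both, by 0.58 and 0.69 on the log2 scale (adjusted p = 0.000385 and 0.000103, edgeR quasi-likelihood). Guide 1 libraries held 11.5, 11.0 and 10.6 CPM, guide 2 libraries 7.58, 7.52 and 8.36 CPM and non-targeting control libraries 4.90, 5.15 and 5.52 CPM. There FOXC1 rose, by log2 fold changes of 1.09 and 0.59 (adjusted p = 9.75e-08 and 0.000279). Grouped by genotype label, its log2 fold changes were 0.83 for guide 1 and 1.04 for guide 2, which then held only 1 library. By title, the guide 1 libraries lay above all 6 hairpin libraries, the guide 2 libraries lay within their range, and the controls averaged 12.7 ± 1.19 CPM for hairpins and 5.19 ± 0.312 CPM for guides (SD, n = 3 each), each scaled within its own experiment.

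FOXA1, which also acts in gut epithelium, rose slightly in WiDr with all 4 constructs. It averaged 122 CPM with hairpin 1, 109 CPM with hairpin 2 and 96.6 CPM in their control, and 150 CPM with guide 1, 153 CPM with guide 2 and 133 CPM in theirs. The log2 fold changes were 0.34 and 0.18 for the hairpins (adjusted p = 3.68e-05 and 0.00812, edgeR quasi-likelihood) and 0.17 and 0.21 for the guides (adjusted p = 0.00581 and 0.00329). With all 36 libraries in 1 fit FOXA1 passed with hairpin 1 alone (0.0643 for hairpin 2, 0.132 and 0.129 for the guides). By genotype label its log2 fold change was 0.16 for guide 2, which then held only 1 library. ELF5 fell with the hairpins, to 0.997 ± 0.0563 CPM with hairpin 1 and 0.812 ± 0.179 CPM with hairpin 2, against 1.65 ± 0.107 CPM in the control (SD, n = 3 each; 22 to 39 counts a hairpin library), by 0.72 and 1.04 on the log2 scale (adjusted p = 0.0125 and 0.00136). With guides its log2 fold changes were 0.08 and -0.18 (adjusted p = 0.831 and 0.649). SOX9, a factor of intestinal crypt cells, averaged 156 CPM with hairpin 1, 189 CPM with hairpin 2 and 177 CPM in the control, and passed only with hairpin 1 (-0.18, adjusted p = 0.00630). With guides it passed for guide 2 (-0.13, adjusted p = 0.0373) and not for guide 1 (0.07, adjusted p = 0.202). The guide 2 call was lost without any one control library, guide 1 replicate 3 or guide 2 replicate 2 (0.0567 to 0.109). GATA3 passed for guide 1 (0.41, adjusted p = 0.00890) and not for guide 2 (0.23, adjusted p = 0.166), and the guide 1 call was lost without control replicate 2 (0.0574) and by genotype label (0.161). Its log2 fold changes with the hairpins were -0.09 and -0.03 (adjusted p = 0.568 and 0.883).

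Counted over the 6 members tested in WiDr, 2 were higher, 3 lower and 1 did not pass with hairpin 1, where 48% of all genes passed, and 2 were higher, 2 lower and 2 did not pass with hairpin 2, where 44.7% passed. With guide 1, 3 were higher, 1 lower and 2 did not pass, against 41.6% of genes, and the same counts held with guide 2, against 25.5%. With both hairpins, 2 members rose and 2 fell, where 12.3% of genes rose and 12.9% fell. SCGB2A2, ESR1 and SOX10 could not be tested there, with at most 5 counts in a library.

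**Figure D3:**
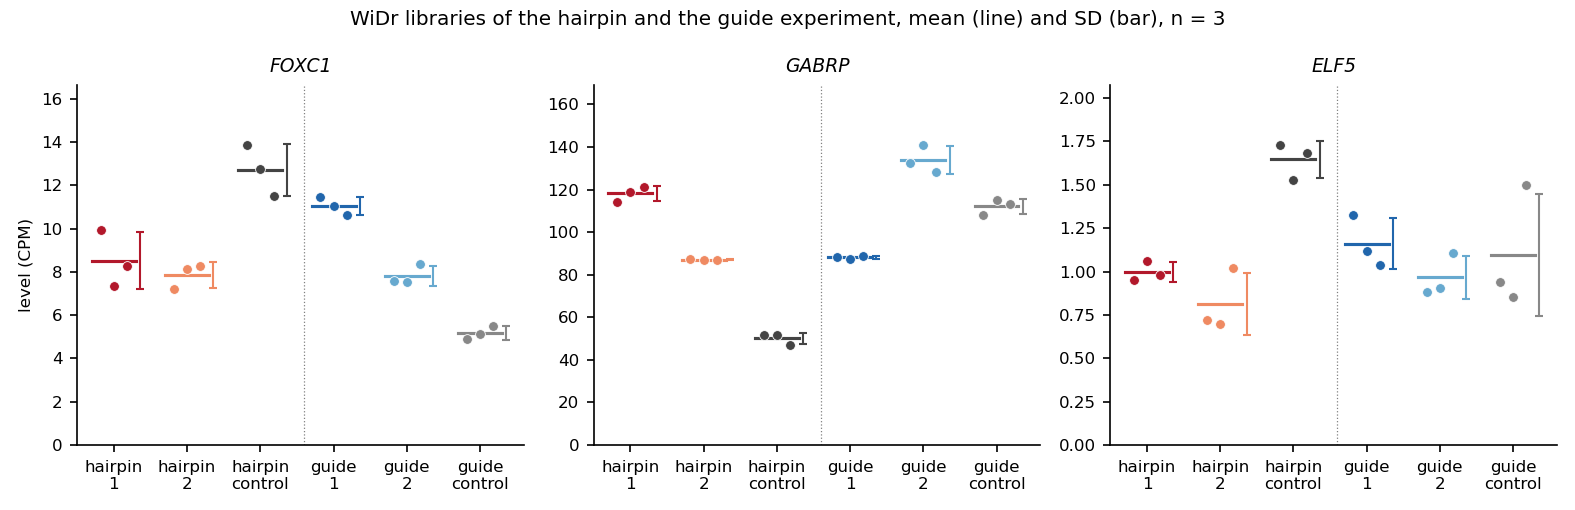
Level in CPM of FOXC1, GABRP and ELF5 in the 18 WiDr libraries, with the 2 hairpins left of the hairpin control and the 2 guides left of the guide control, scaled within each experiment; points are libraries, lines are means and bars are SD (n = 3). The FOXC1 points of the hairpins lie below their control and those of the guides above theirs, and the GABRP points of the 2 guides lie on opposite sides of their control.

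The effect of the constructs, as the mean of both hairpins against control, was then compared between lines. In MDA-MB-468 minus PANC-1, 3 of the 4 members that could be compared passed, where 23.9% of genes did. FOXC1 differed by 0.90 (adjusted p = 2.43e-05, edgeR quasi-likelihood), GATA3 by 0.84 (adjusted p = 5.69e-06) and FOXA1 by 1.32 (adjusted p = 3.01e-05), each with a fall in PANC-1, where the FOXA1 level was very low. SOX9 differed by -0.18 with a 95% interval of -0.36 to 0.01 (adjusted p = 0.209). Leaving out PANC-1 hairpin 1 replicate 2 gave 0.94, 0.85, 1.44 and -0.17 for FOXC1, GATA3, FOXA1 and SOX9, and leaving out MDA-MB-468 control replicate 1 gave 0.90, 0.80, 1.28 and -0.24, with the same 3 passing each time. In MDA-MB-468 minus WiDr, 4 of 6 passed, where 18.2% of genes did. FOXC1 differed by 0.84 (adjusted p = 9.85e-05), ELF5 by 1.49 (adjusted p = 0.000500), SOX9 by 0.37 (adjusted p = 0.0164) and GABRP by -0.43 (adjusted p = 0.000837). GABRP rose with the hairpins of both lines, and further with those of WiDr. FOXA1 differed by -0.21 (adjusted p = 0.0599) and GATA3 by 0.06 (95% interval -0.09 to 0.22, adjusted p = 0.697). Without MDA-MB-468 control replicate 1 the same 4 passed and so did FOXA1 (-0.22, adjusted p = 0.0391). These differences from WiDr are for its hairpins only. With the WiDr guides by title, the mean log2 fold changes of those 4 were 0.84 for FOXC1, -0.05 for ELF5, -0.03 for SOX9 and -0.04 for GABRP.

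Within WiDr, the mean effect of the hairpins minus that of the guides was compared after the values were seen, and 4 of 6 members passed, where 41.6% of genes did. FOXC1 differed by -1.47 (adjusted p = 3.12e-09, edgeR quasi-likelihood), GABRP by 1.07 (adjusted p = 2.75e-12), ELF5 by -0.83 (adjusted p = 0.0200) and GATA3 by -0.37 (adjusted p = 0.0345). The GATA3 call was lost without the filter on low counts, at 0.0615. FOXA1 differed by 0.07 (95% interval -0.03 to 0.18, adjusted p = 0.293) and SOX9 by -0.01 (95% interval -0.11 to 0.10, adjusted p = 0.933). Hairpins and guides differ in vector, control and experiment, which cannot be told apart here.

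**Figure D4:**
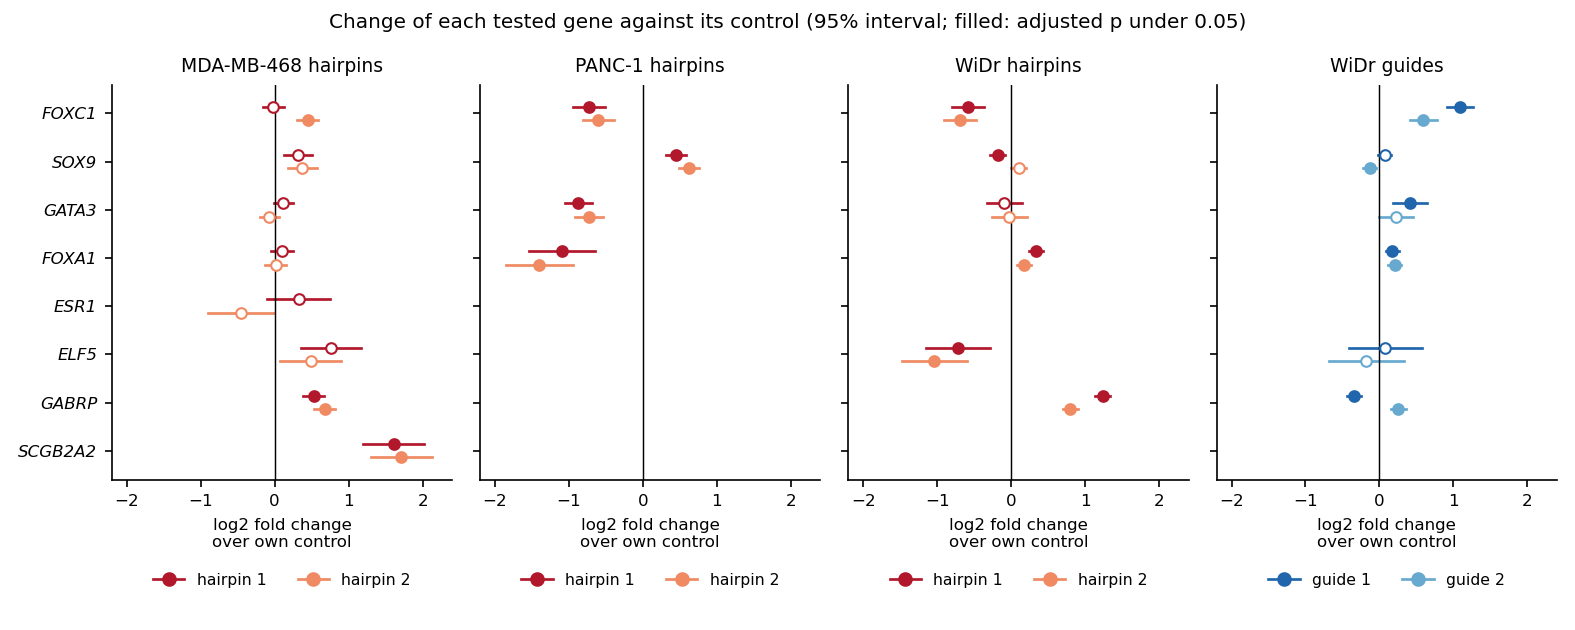
Log2 fold change over its own control of each member that could be tested, for the 2 constructs of each of the 4 experiments. Lines are 95% intervals of the fit for 1 gene from the normal distribution, narrower than the quasi-likelihood test implies. Filled points passed, and hairpin 2 of PANC-1 is as labelled. SCGB2A2 has values in MDA-MB-468 only, at 1.61 and 1.71, and FOXC1 lies on both sides of 0.

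Control levels of the members were compared between lines, with the hairpin control for WiDr. The WiDr guide control differed from that hairpin control. With all 36 libraries scaled together, GABRP averaged 51.2 CPM in the hairpin control and 113 CPM in the guide control. FOXC1 averaged 13.0 and 5.24 CPM in that order. FOXC1 in MDA-MB-468 control exceeded PANC-1 control by 2.28 and WiDr hairpin control by 2.01 in log2 (adjusted p = 4.18e-08 and 9.43e-08, edgeR quasi-likelihood), and GATA3 exceeded them by 2.54 and 3.64 (adjusted p = 1.86e-08 and 4.66e-09). FOXA1 exceeded PANC-1 by 4.80 and was below WiDr by -0.94 (adjusted p = 1.83e-09 and 1.73e-05), and GABRP was below WiDr by -0.85 (adjusted p = 0.000112). SOX9 did not pass against PANC-1 (0.01, 95% interval -0.17 to 0.20, adjusted p = 0.908) and was lower than in WiDr (-0.65, adjusted p = 0.000172), while ELF5 against WiDr gave -0.05 (95% interval -0.52 to 0.42, adjusted p = 0.862). In all, 3 of the 4 members fitted against PANC-1 and 5 of the 6 fitted against WiDr passed, where 69.5% and 71.7% of all genes did. The same members passed without MDA-MB-468 control replicate 1, and ELF5 against WiDr was then 0.05 (adjusted p = 0.862). Where the other line had 0 counts, the fold was bounded with a floor of 3 counts a library: SCGB2A2 was at least 424-fold higher than in PANC-1 and at least 399-fold higher than in WiDr, ESR1 at least 32.1-fold and 30.1-fold, GABRP at least 307-fold and ELF5 at least 17.6-fold higher than in PANC-1. These bounds cover counting error only.

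**Figure D5:**
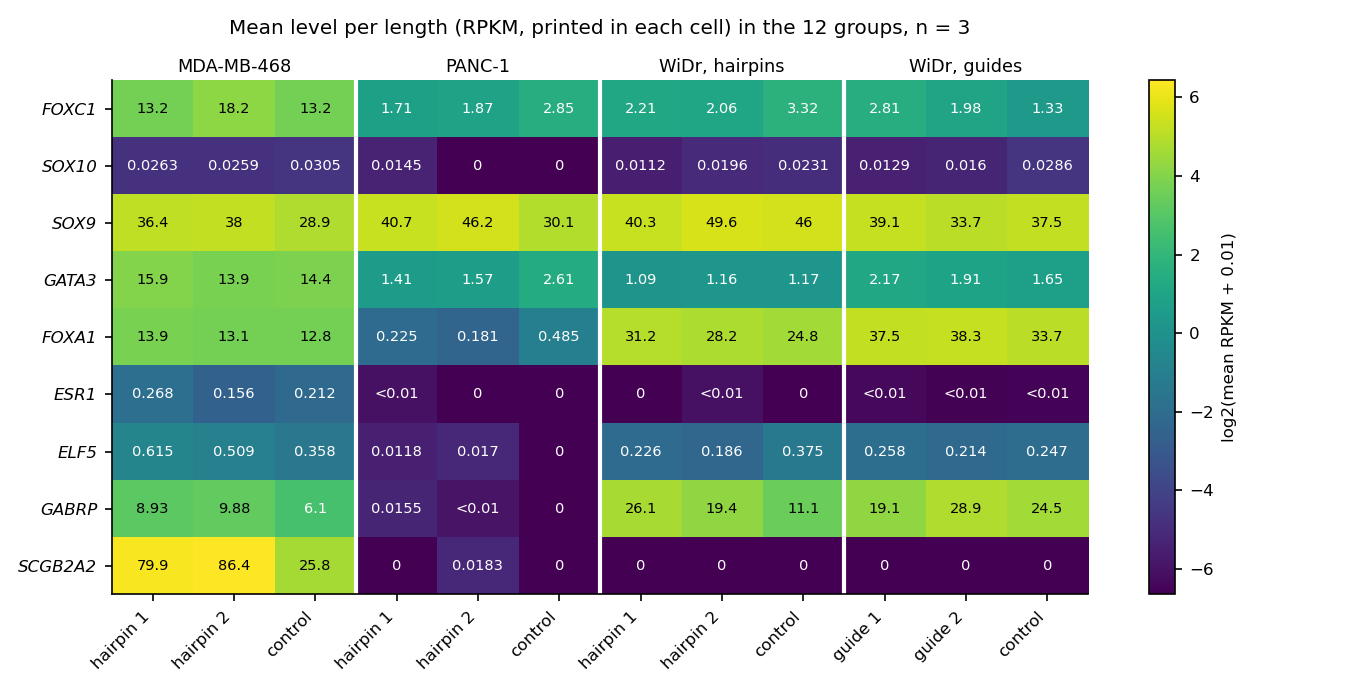
Mean level per length of the 9 members in the 12 groups, printed in each cell as RPKM and coloured by log2(RPKM + 0.01), with all 36 libraries scaled together; constructs stand left of their control, and hairpin 2 of PANC-1 is as labelled. SOX9 is high in all 12 groups, FOXC1 and GATA3 are highest in MDA-MB-468, and SCGB2A2 reaches 25.8 to 86.4 in MDA-MB-468 and is at or near 0 elsewhere.

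For likeness over the 12 group means, 15348 genes were searched by Pearson's r of log2(CPM + 0.5), a description in which groups of a line share their background. The gene most like SCGB2A2 was MUCL1 (r = 0.9998), then MAGEB4 (0.999), and these are genes seen mainly in MDA-MB-468. By Spearman's rank correlation they had only 0.790 and 0.728, and LOC102723517 was highest, at 0.990. SLC1A1, a glutamate transporter, was most like GABRP (0.997), followed by UGT1A6 (0.995). TCEB3 and PITX1 were most like FOXC1 (0.985 each), PRR19 and MIEF1 most like GATA3 (0.990 each), and MARCKSL1 and SULF2 most like FOXA1 (0.998 and 0.996). For ELF5 the genes were UCA1 and ARHGDIB (0.985 and 0.984), for ESR1 LINC01208 and CCR2 (0.998 each), and for SOX9, whose level varied least between lines, SMAD5 and TMED7-TICAM2 at only 0.867 and 0.832.

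On GRCh38 the members lie at chr6:1609972-1613897 (+) for FOXC1, chr22:37970686-37987422 (-) for SOX10, chr17:72121020-72126420 (+) for SOX9, chr10:8045378-8075203 (+) for GATA3, chr14:37589984-37596059 (-) for FOXA1, chr6:151656691-152129619 (+) for ESR1, chr11:34478793-34513805 (-) for ELF5 and chr5:170763350-170814047 (+) for GABRP. Annotated genes overlap 6 of them: POLR2F lies over SOX10, SOX9-AS1 over SOX9, GATA3-AS1 over GATA3, TTC6 over FOXA1, SYNE1 over ESR1 and an antisense gene over GABRP. Whether counting used strand is not given in the sources used here, so reads of overlapping genes cannot be told apart; FOXC1, ELF5 and SCGB2A2 have no such neighbour. SOX9-AS1 was low beside SOX9, at 3.44 CPM with hairpin 1, 3.69 CPM with hairpin 2 and 3.29 CPM in the control of MDA-MB-468.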

How the data were processed

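RNA-seq of 36 libraries was analysed from 1 deposited table of expected counts per gene, made by the authors; per the submitters' processing notes the tools were RSEM 1.2.15 and Bowtie2 2.1.0 and the build hg38. Annotation, strand setting and filters were not given in the sources used here. Samples were grouped by title. Expected counts were rounded, genes kept by edgeR's filterByExpr (minimum count 10), scaled by TMM and fitted with glmQLFit (robust) in edgeR 4.0.16 on R 4.3.3, with the 4 experiments fitted separately. Adjusted p are Benjamini-Hochberg over all genes tested, and the standard error is the log2 fold change over the root of F. DESeq2 1.42.0, fits of all 36 libraries or of 1 construct with its control, no filter, a replicate block and leaving out each library were alternatives. The fits were also run on counts simulated from their own estimated spread. Those counts hold no difference between libraries in gene length, so they do not check the fits against it.

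The members and gene lists were chosen with earlier results of these data known. The text names all 9 members. From each list it names up to 4 genes that passed with both MDA-MB-468 hairpins in the same direction, ranked by the smaller change, or else the 2 with the highest level. For each member it names the 2 genes with the highest r over groups. Per-length levels used GENCODE 29 exon lengths, matched for 23900 symbols (90.3%). Replicates of a group differed beyond sampling noise, with a chi-square of 3.50 to 188 per degree of freedom; what separates replicates beyond the design text's word is not stated, so p-values measure the spread between these libraries. Same-numbered libraries did not deviate together throughout, so numbers were not treated as pairs. The comparison of WiDr hairpins with guides, leaving out the libraries that stood apart from the comparisons of lines and from the lists, and the length and EGFR values were added after seeing the data. The gene that the constructs target is not reported here, so their effect on it was not checked.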

Additional observations from a re-analysis of the deposited data

Results flagged for a closer look

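The effect of the hairpins differed between MDA-MB-468 and PANC-1, by a test of the difference itself, for FOXC1 (0.90, MDA-MB-468 minus PANC-1, in log2), GATA3 (0.84) and FOXA1 (1.32). It differed between MDA-MB-468 and WiDr for FOXC1 (0.84), SOX9 (0.37), ELF5 (1.49) and GABRP (-0.43). Within WiDr, hairpins minus guides differed for FOXC1 (-1.47), GATA3 (-0.37), ELF5 (-0.83) and GABRP (1.07); that comparison was chosen after the values were seen. Causes were not tested.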

How the results depend on the processing

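SCGB2A2 passed with both MDA-MB-468 hairpins under all 16 settings, with adjusted p of at most 0.0463 and 0.0371. Members that passed with hairpin 1 numbered 2 in the fit reported, 4 with all 36 libraries sharing the spread and 1 to 2 when each library was left out; those that rose with both numbered 2, and 1 to 2 when each library was left out. All genes that passed with both numbered 192, 497 with all 36 libraries, 75 with a construct and its control only, 467 by DESeq2's Wald test and 69 to 201 when each library was left out; basal markers that rose with both numbered 5, then 1 with a construct and its control only, 8 by DESeq2 and 2 to 7 when each library was left out. For all genes, hairpin 1 gave 332, then 900, 177, 805 and 85 to 331 under those 4 settings, and hairpin 2 gave 511, then 1268, 127, 1104 and 167 to 567. Elsewhere, PANC-1 hairpin 1 gave 4566 genes, but 2966 with its control only and 2851 to 6797 when a library was left out; the libraries labelled hairpin 2 gave 5053, and 3116 to 7958. With all 36 libraries WiDr hairpin 2 gave 3964 genes (6403 as reported), guide 1 3620 (6100) and guide 2 1261 (3731, and 2436 to 4138 when a library was left out), and 1 member passed for guide 2 (4 as reported).

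Grouped by the genotype label, guide 1 had 1353 genes and 2 members past the threshold and guide 2 had 127 and 0 (4 members each by title), with log2 fold changes of 0.043 and -0.33 for GABRP, -0.040 and 0.044 for SOX9, and -0.036 for ELF5 with guide 1. Other directions that turned were all in values that had not passed: FOXC1 with MDA-MB-468 hairpin 1 was 0.00036 with all 36 libraries, SOX9 was 0.00383 for hairpins minus guides and -0.012 for MDA-MB-468 against PANC-1 control with DESeq2 size factors, ELF5 was 0.052 for MDA-MB-468 against WiDr control without MDA-MB-468 control replicate 1, and leaving out each library gave -0.019 to 0.073 for FOXA1 with MDA-MB-468 hairpin 2, -0.061 to 0.011 for GATA3 with WiDr hairpin 2, -0.070 to 0.36 for ELF5 with guide 1 and -0.33 to 0.11 with guide 2. The causes were not tested.

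The replicate block changed no member's call; it gave 2943 PANC-1 genes for hairpin 1 and 3254 for libraries labelled hairpin 2, and CHI3L1 did not pass (adjusted p = 0.0658 and 0.0670). Same-numbered libraries' deviations correlated at -0.22 to 0.64 in MDA-MB-468 and -0.67 to 0.13 in PANC-1, -0.15 to 0.07 in WiDr hairpins and -0.05 to 0.13 in WiDr guides. Depth limits the members with few counts most: FOXA1 in PANC-1 rested on 23 to 72 counts a library.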

Other observations

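The lists were also read in the other lines, with genes named after their values were seen. In PANC-1, where GABRP was at or near 0, 3 of 18 GABA-A receptor subunits could be tested and all 3 rose with both constructs, where 12.7% of genes rose and 11.1% fell with both. GABRD, a delta subunit, averaged 3.92 CPM with hairpin 1, 3.98 CPM in the libraries labelled hairpin 2 and 1.21 CPM in the control (log2 fold changes 1.70 and 1.72, adjusted p = 0.000114 and 9.63e-05, edgeR quasi-likelihood). GABRA2 and GABRB1 also rose but stayed under 1 CPM in every group. The filter on low counts can admit such genes through the groups where they are high. The count of subunits that rose therefore cannot be set against the share of all genes. Without PANC-1 hairpin 1 replicate 2, the library that stood apart, 2 of the 3 rose with both, since GABRB1 did not pass with hairpin 1 (adjusted p = 0.131). Of 20 tested basal and myoepithelial markers in PANC-1, 10 rose with both and 3 fell, with the same counts without that library. ITGB4, the integrin of hemidesmosomes, averaged 186 CPM with hairpin 1, 160 CPM in the libraries labelled hairpin 2 and 22.9 CPM in the control. MME, which rose in MDA-MB-468, fell in PANC-1 to 0.890 and 0.440 CPM, against 2.69 CPM in the control (adjusted p = 0.00329 and 0.000341); the difference between the lines was not tested for it.

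In WiDr, 20 luminal progenitor and alveolar markers could be tested with the hairpins. With both hairpins 1 rose and 6 fell (median log2 fold change -0.43), where 12.3% of genes rose and 12.9% fell. The guides did not repeat this: with both guides by title, 3 of 20 rose and 3 fell (median 0.14), where 1242 of 14649 genes rose and 917 fell. The values that follow are for the hairpins. ALDH1A3, a retinaldehyde dehydrogenase used to mark progenitors, averaged 58.8 CPM with hairpin 1, 144 CPM with hairpin 2 and 353 CPM in the control, with log2 fold changes of -2.59 and -1.29 (adjusted p = 2.61e-15 and 3.49e-12, edgeR quasi-likelihood). LCN2, a secreted siderophore-binding protein, averaged 183, 301 and 417 CPM in that order of groups, and CD24, the one that rose, averaged 1083, 922 and 600 CPM.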
